A study of Mus musculus with 40 samples.

Results

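The 7 genes described here encode the machinery of MHC class II antigen presentation: H2-Aa, H2-Ab1, H2-Eb1, Cd74, Ciita, H2-DMa and H2-DMb1. They were taken by symbol from the 20953 genes of an RNA-seq table of mouse dorsal hippocampus, the dorsal part of a brain structure needed for memory of places. They were chosen by their levels in these same libraries, so their values and differences are given as a description, without a test of the members. The table held 40 libraries, each from 1 mouse, in 6 groups. All mice are labelled C57BL/6J, and the study's methods give a C57BL/6 background for the HDAC3 lines.

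The groups were old HDAC3flox/flox mice after object location memory training (OLM, n = 8) and from the homecage (n = 8), old wildtype mice after OLM (n = 6) and from the homecage (n = 6), and young wildtype mice after OLM (n = 6) and from the homecage (n = 6). In this training a mouse explores objects at fixed places in a box. Tissue was taken 60 min after training, or straight from the homecage. Old mice were 18 to 20 months of age and young mice 2 to 4 months. HDAC3flox/flox mice carry loxP sites in both copies of the gene for histone deacetylase 3, an enzyme that removes acetyl groups from histones. The study's methods describe deletion by a virus that carries Cre recombinase under the CaMKII promoter, infused into the dorsal hippocampus of old HDAC3flox/flox mice and of their wildtype controls. That promoter is active in excitatory neurons and not in the immune cells that normally carry class II, and the young mice came from an earlier study. Age, study and infusion therefore cannot be told apart in any comparison of old with young mice.

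Class II molecules display peptides from proteins taken up by a cell to CD4+ T cells. H2-Aa and H2-Ab1 are the α and β chains of I-A, the class II molecule of C57BL/6 mice. H2-Eb1 is the β chain of I-E, which does not reach the surface in this strain because its α-chain gene is not functional. Cd74, the invariant chain, fills the peptide groove during assembly, and the H2-DM dimer, made of H2-DMa and H2-DMb1, swaps the remnant of Cd74 for a peptide. Ciita is the coactivator that turns these genes on. It binds no DNA itself and acts through RFX, CREB and NF-Y proteins seated on X and Y boxes in the class II promoters. Interferon gamma induces Ciita. In the healthy brain class II is scarce and belongs mostly to dendritic cells and macrophages at the borders and to activated microglia.

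By the GENCODE M21 annotation of GRCm38, 5 of the 7 genes lie within 197 kb of chromosome 17: H2-DMa (17:34119541-34139101, plus strand), H2-DMb1 (17:34153072-34160230, plus), H2-Ab1 (17:34257689-34269419, plus), H2-Aa (17:34282744-34287823, minus) and H2-Eb1 (17:34305867-34316674, plus). Ciita is on chromosome 16 (16:10480059-10528418, plus), and Cd74 is on another chromosome. The models of H2-DMa, H2-Eb1, Cd74 and Ciita overlap other genes, and the library kit did not keep strand, so reads in the shared stretches cannot be assigned. Of the stretches of 50 bases in the H2-DMb1 transcripts, 22.7% also occur in another gene, H2-DMb2, against 0.488% for H2-Aa and 0 for the other 5 genes. The H2-DMb1 level is therefore uncertain in scale, since only reads with a unique alignment were counted.

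The promoter letters through which Ciita acts could be read for 4 of the 7 genes from RefSeq (GRCm38.p6, 250 bases before to 50 bases after a start site). They are shown as a description, and a link of these letters to the genes' levels was not tested. Both strands were searched for a Y box core (ATTGG), an X1 box core (AGNNAC, then any 3 bases, then TG) and a CRE core (TGACG), which marks the X2 box; the CRE core can overlap itself on the opposite strand. Matches are in capitals in these stretches of 60 bases, which run 5′ to 3′ along the gene's own strand at chr17:34287857-34287916 (H2-Aa, minus), chr17:34305763-34305822 (H2-Eb1, plus), chr17:34153085-34153144 (H2-DMb1, plus) and, for comparison, chr17:34145114-34145173 (H2-DMb2, plus):
H2-Aa: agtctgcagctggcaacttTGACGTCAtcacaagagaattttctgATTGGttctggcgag
H2-Eb1: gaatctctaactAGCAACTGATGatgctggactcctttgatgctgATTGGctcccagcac
H2-DMb1: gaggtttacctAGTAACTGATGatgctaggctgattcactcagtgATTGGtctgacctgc
H2-DMb2: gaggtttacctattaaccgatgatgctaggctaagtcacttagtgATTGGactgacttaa

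The X1 core stood 22 bases ahead of the Y core in H2-Eb1 and 23 bases ahead in H2-DMb1. An X1 core with a Y core within 30 bases after it, both on the gene's own strand, occurred in 0.216% of all 32851 promoter windows of this length. On either strand, with or without the other motifs, a Y core occurred in 37.4%, an X1 core in 14.8% and a CRE core in 20.8%. H2-Aa held the Y core and, in place of an X1 match, 2 CRE cores that together read as a palindrome. The stretches of H2-DMb1 and H2-DMb2 shared 51 of 60 bases (85%), and the X1 match of H2-DMb1 was broken in H2-DMb2. Of the 2 H2-DMa windows, 1 held a Y core, far from the start site at position -198, and the other held none of these letters. No member window matched the interferon motifs searched, an ISRE core (GAAA, any 2 bases, then GAAA, in 3.44% of windows) or a GAS core (TTCNNNGAA, in 8.30%). A match is a description of the letters and was not tested as a binding site.

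**Figure D1:**
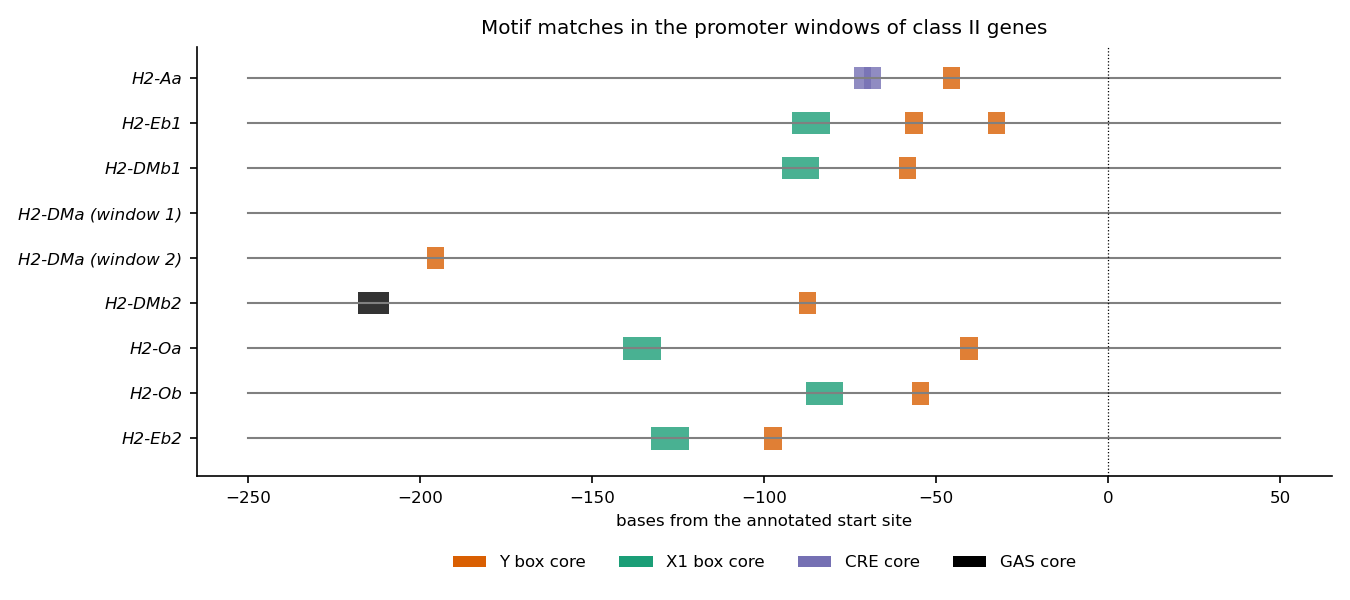
Matches of the motif letters in the RefSeq promoter windows of 4 of the 7 genes and of the other class II chains, by distance in bases from the annotated start site (dotted line). Orange is the Y box core, green the X1 box core, purple the CRE core and black the GAS core; the X1 and Y cores stand 22 and 23 bases apart in H2-Eb1 and H2-DMb1.

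Levels are RPKM, reads per length of transcript and per total of mapped reads, a scale per length on which genes can be compared. The library depth estimated from the smallest steps in the values was 14.3 to 38.9 M reads. Hdac3 was 18.4 ± 4.35 RPKM after OLM and 16.2 ± 1.62 RPKM in the homecage in old HDAC3flox/flox mice (SD, n = 8 each), against 30.3 ± 1.89 and 29.97 ± 1.63 RPKM in old wildtype mice (SD, n = 6 each), and the groups did not overlap. The 8 hippocampal neuron markers summed to between 1107 and 1891 RPKM in every library. Mice are named as labelled, with H3F for old HDAC3flox/flox, OWT for old wildtype, YWT for young wildtype, BV for OLM and HC for homecage. The old wildtype homecage mouse OWT-HC-110A had levels of the members and of immune genes close to those of young mice, and the old HDAC3flox/flox homecage mouse H3F-HC-121B had the lowest median correlation with the other libraries (0.878). Results that rest on OWT-HC-110A are given with and without it, and the homecage comparison of genotypes also without both.

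H2-Aa and H2-Ab1, the I-A chains, were among the most variable transcripts of the old hippocampus. H2-Aa was 6.03 RPKM in the lowest, 21.4 in the median and 871 in the highest old HDAC3flox/flox mouse after OLM, against 10.4, 422 and 857 RPKM in the homecage. In old wildtype mice it was 7.60, 73.2 and 315 RPKM after OLM, against 1.95, 238 and 545 RPKM in the homecage. The groups overlapped over most of their range: of 8 trained HDAC3flox/flox mice, 7 had at most 85.1 RPKM and 1, mouse H3F-BV-113D, had 871 RPKM, whereas of 8 homecage HDAC3flox/flox mice, 7 had at least 170.0 RPKM and 1, mouse H3F-HC-112B, had 10.4 RPKM. Young mice had 0.209, 0.529 and 3.70 RPKM after OLM and 0.198, 0.698 and 3.40 RPKM in the homecage, and only mouse OWT-HC-110A among the old mice fell within that range.

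H2-Ab1 followed H2-Aa mouse by mouse. It was 5.93, 18.1 and 738 RPKM in old HDAC3flox/flox mice after OLM (lowest, median and highest), against 8.25, 364 and 704 RPKM in the homecage. In old wildtype mice the values were 7.22, 58.1 and 248.97 RPKM after OLM, against 2.17, 217 and 462 RPKM in the homecage. Young mice stayed between 0.203 and 3.31 RPKM over both conditions, and only mouse OWT-HC-110A among the old mice fell within that range.

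H2-Eb1, the β chain without a surface partner in this strain, was transcribed in the same pattern at a lower level. It was 2.86, 11.99 and 466 RPKM in old HDAC3flox/flox mice after OLM, against 5.69, 218 and 532 RPKM in the homecage. Old wildtype mice had 4.62, 38.8 and 169 RPKM after OLM, against 1.32, 119.6 and 286 RPKM in the homecage. Young mice had 0.310 to 2.32 RPKM over both conditions, and mouse OWT-HC-110A was again the single old mouse within that range.

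Cd74 (GRCm38 18:60803848-60812652, plus strand) was the most abundant member in every old mouse but OWT-HC-110A, in which H2-DMa was higher. It was 14.2, 41.8 and 1670.3 RPKM in old HDAC3flox/flox mice after OLM, against 20.8, 868 and 2017 RPKM in the homecage. Old wildtype mice had 12.9, 189 and 641 RPKM after OLM, against 4.15, 479 and 1012 RPKM in the homecage. In young mice Cd74 ran between 0.494 and 6.20 RPKM, and H2-DMa, the α chain of the peptide editor, was the most abundant of the 7 genes in each of the 12.

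Ciita was the scarcest member, as is usual for a regulator. It was 0.15, 0.267 and 7.79 RPKM in old HDAC3flox/flox mice after OLM, against 0.1195, 3.30 and 6.36 RPKM in the homecage. Old wildtype mice had 0.130, 0.667 and 2.77 RPKM after OLM, against 0.112, 3.13 and 13.1 RPKM in the homecage. Young mice lay between 0.0846 and 0.142 RPKM, which stood on about 18.3 to 42.0 reads a library, and 3 old mice (H3F-HC-112B, OWT-BV-109C and OWT-HC-110A) had no more than the highest young mouse. The mouse highest in Ciita was not always the one highest in its targets: in the old HDAC3flox/flox homecage, mouse H3F-HC-121B led in H2-Aa and Cd74 but had 2.93 RPKM of Ciita, below 5 of the other 7 mice.

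H2-DMa and H2-DMb1, the peptide editor, had a narrower range. H2-DMa was 7.44, 8.19 and 42.4 RPKM in old HDAC3flox/flox mice after OLM, against 7.31, 33.5 and 68.4 RPKM in the homecage. Old wildtype mice had 8.11, 15.9 and 24.5 RPKM after OLM, against 7.23, 29.7 and 39.2 RPKM in the homecage. This gene had a floor that the I-A chains lacked: young mice held 5.39 to 7.49 RPKM, and 3 old mice did not exceed the highest young mouse. The H2-DMa model overlaps Brd2 and other genes. Whether their reads form part of this floor was not tested.

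H2-DMb1 was 1.24, 2.76 and 29.5 RPKM in old HDAC3flox/flox mice after OLM, against 2.50, 19.5 and 33.9 RPKM in the homecage. Old wildtype mice had 2.52, 4.96 and 11.1 RPKM after OLM, against 0.645, 15.4 and 22.3 RPKM in the homecage. Young mice had 0.441 to 1.47 RPKM, so the β chain of the editor lacked the floor of its α chain.

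**Figure D2:**
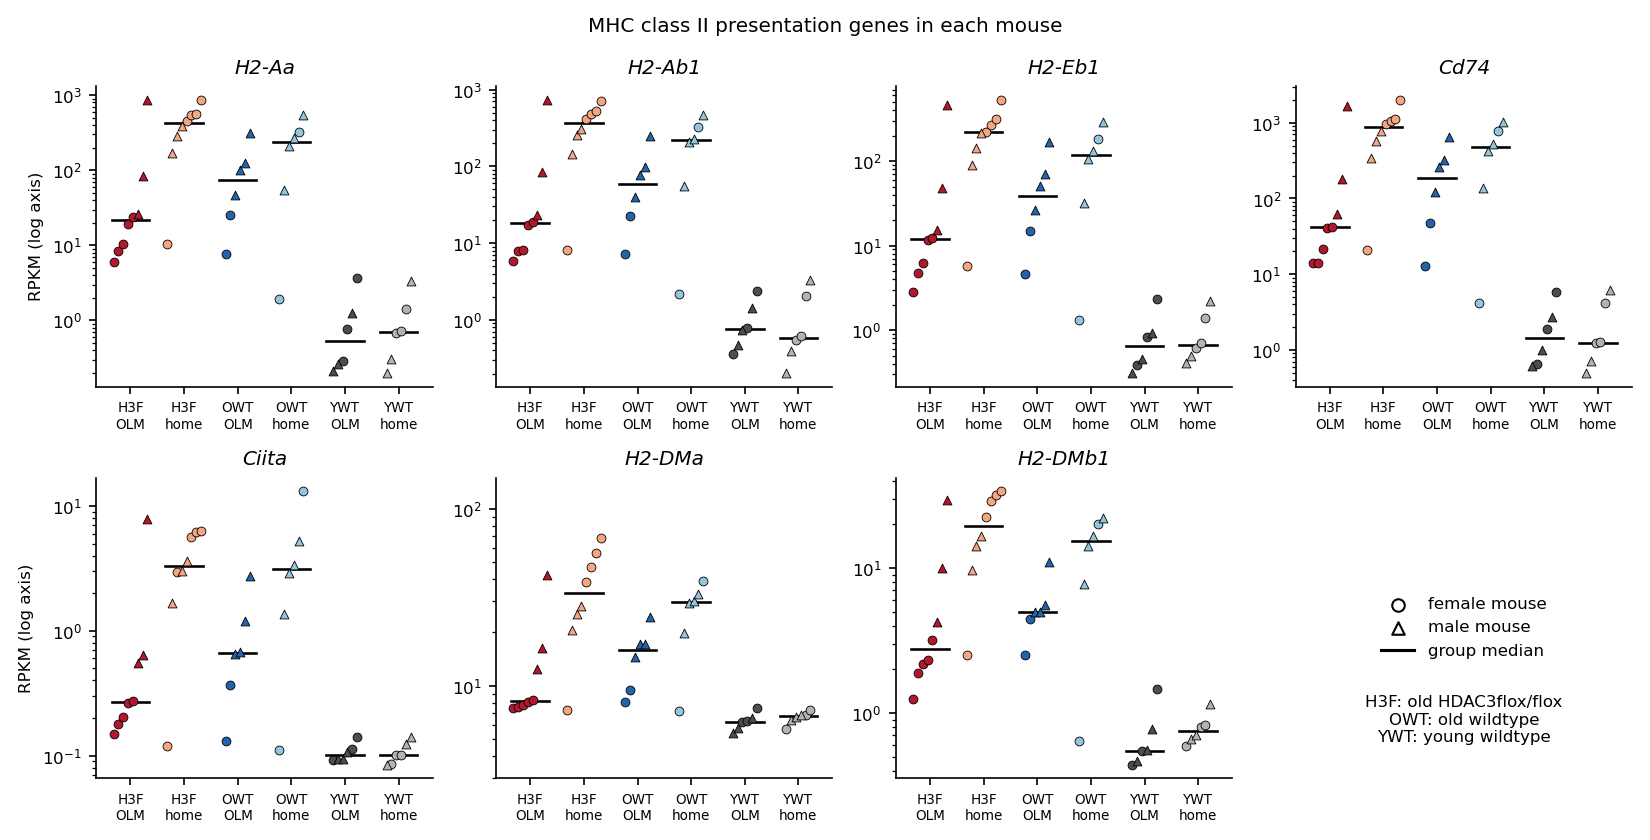
RPKM of each gene in each of the 40 mice on a log axis, by group; circles are female and triangles male mice, sexed from their own transcripts, and bars are group medians. The median of H2-Aa was 21.4 and 422 RPKM in old HDAC3flox/flox mice (OLM and homecage), 73.2 and 238 RPKM in old wildtype mice and 0.529 and 0.698 RPKM in young wildtype mice.

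The same mice stood at the ends of the range for nearly all of the genes. Mouse H3F-BV-113D was the highest of the trained old HDAC3flox/flox mice for 7 of 7 genes, and mouse H3F-HC-112B the lowest in the homecage of that genotype for 7 of 7. In old wildtype mice, OWT-BV-106C was the highest after OLM for 7 of 7 and OWT-BV-109C the lowest for 6 of 7. In the old wildtype homecage OWT-HC-110A was the lowest for 7 of 7 and OWT-HC-131A the highest for 5 of 7. The summed level of the 7 genes thus ran from 39.0 through 104.1 to 3826 RPKM (lowest, median and highest) in old HDAC3flox/flox mice after OLM, against 55.1, 1934 and 4214 RPKM in the homecage. It was 44.5, 381 and 1411 RPKM in old wildtype mice after OLM, against 17.6, 1102 and 2366 RPKM in the homecage, and 8.22 to 23.2 RPKM in young mice of both conditions.

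Few genes varied as much as H2-Aa and Cd74 between old mice of 1 group. On the log2(RPKM + 0.5) scale the SD of H2-Aa was 2.28 in trained old HDAC3flox/flox mice, the 9th largest of 14173 genes with a mean of at least 0.5 RPKM, and 2.88 in homecage old wildtype mice, the 7th largest. The median SD over all genes was 0.245 and 0.164 in those groups. Cd74 ranked 8th in the trained old HDAC3flox/flox mice and 6th in the homecage old wildtype mice. Not all members ranked so high: in those groups Ciita was 170th and 204th and H2-DMa 656th and 803rd. In bulk tissue, fewer cells of a type and less RNA per cell cannot be told apart, so these levels do not say which varied.

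Within an old mouse H2-Aa, H2-Ab1, H2-Eb1 and Cd74 kept nearly fixed proportions. Over the 12 young mice, where these genes rest on few reads, the ratio of H2-Ab1 to H2-Aa ran from 0.644 to 3.58. Over the 28 old mice, in which H2-Aa itself spanned 1.95 to 871 RPKM, the ratio of H2-Ab1 to H2-Aa lay between 0.766 and 1.11 (median 0.885), H2-Eb1 to H2-Aa between 0.468 and 0.675 (median 0.555) and Cd74 to H2-Aa between 1.69 and 2.59 (median 2.04). Each of these ratios therefore varied by 1.44- to 1.53-fold. The ratio of H2-DMa to H2-Aa, by contrast, ran from 0.0487 to 3.70, a 76.1-fold range, since the editor's α chain itself spanned only 7.23 to 68.4 RPKM. H2-Aa was 17.5 to 292 times the level of Ciita (median 83.1), with the lowest ratio in OWT-HC-110A and the highest in H3F-HC-121B. The 2 chains of the editor also did not keep 1 proportion: H2-DMb1 was between 0.0892 (OWT-HC-110A) and 0.695 (H3F-BV-113D) times H2-DMa.

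**Figure D3:**
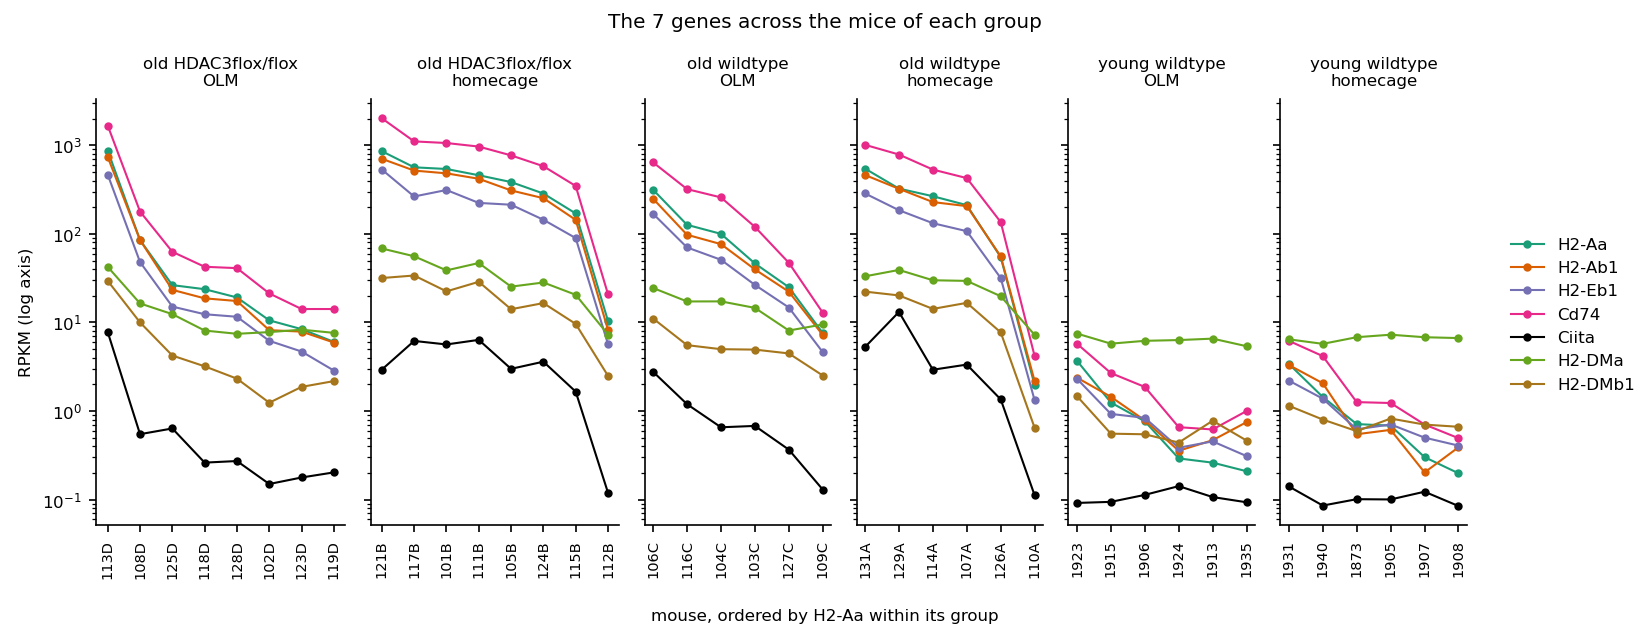
RPKM of the 7 genes on a log axis in each mouse, ordered by H2-Aa within its group. The lines of H2-Aa, H2-Ab1, H2-Eb1 and Cd74 run in parallel through the old groups, with H2-Ab1 at 0.766 to 1.11 times H2-Aa, while H2-DMa levels off near the 5.39 to 7.49 RPKM of young mice.

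Over the 28 old mice, each value centred on its group mean of log2(RPKM + 0.5), the 21 pairs of members had Pearson correlations of 0.907 to 0.999 (median 0.949). These describe mice that share a group and a library for both genes, and carry no test. Over the 12 young mice the pairs ran from -0.12 to 0.988 (median 0.561). The I-A chains, H2-Eb1 and Cd74 still moved together there (r of 0.921 to 0.988), but Ciita and H2-DMa had correlations of 0.00 and 0.144 with the mean of the members. The genes with the highest correlation with the members' mean in old mice, members left out, were Rnase6 (r = 0.968), Slamf8 (0.945), Ccl8 (0.939), Tlr12 (0.938), Gbp8 (0.936), Tlr1 (0.932), AW112010 (0.930), H2-K1 (0.929), Cmtm7 (0.929) and Cd247 (0.928). Ccl8 encodes a chemokine, Tlr1 and Tlr12 receptors for microbial ligands, Gbp8 an interferon-induced GTPase, H2-K1 a class I heavy chain and Cd247 the ζ chain of the T cell receptor.

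Training was compared with the homecage within each genotype and age. A gene was called when its limma p was below 0.05 before adjustment and below 0.15 after Benjamini-Hochberg adjustment over the 14173 genes. Differences are of log2(RPKM + 0.5) ± standard error and understate the change of low genes. In old HDAC3flox/flox mice every member was lower in value after OLM, with differences of -3.19 ± 0.99 for Cd74, -3.16 ± 0.99 for H2-Aa, -3.11 ± 0.99 for H2-Ab1, -3.08 ± 0.98 for H2-Eb1, -1.87 ± 0.58 for H2-DMb1, -1.67 ± 0.55 for Ciita and -1.40 ± 0.43 for H2-DMa. In size, Cd74, H2-Aa, H2-Ab1 and H2-Eb1 were 2nd, 4th, 5th and 6th of all 14173 differences in either direction. None of the 7 was called, and none of all genes was (0%), although 2428 genes had an unadjusted p under 0.05; the median of the members was -3.08, against -0.01 over all genes. The count depended on single mice: 7 of 7 were called without H3F-BV-113D (3095 genes called in all) and 7 of 7 without H3F-HC-112B (2264 genes in all), and 7 of 7 when the spread was estimated over all 40 libraries (3632 genes in all) or libraries were weighted by their fit (7194 genes in all). All 7 genes overlapped between trained and homecage mice, as did all but 3 of the 14173 genes (0.0212%).

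In old wildtype mice the members were also lower in value after OLM, with differences from -0.70 ± 0.38 (H2-DMa) to -1.36 ± 0.64 (Ciita), with -0.85 ± 1.27 for H2-Aa and -0.80 ± 1.32 for Cd74. None of the 7 was called and none of all genes was (0%; 1125 had an unadjusted p under 0.05), and the median was -0.85, against -0.02 over all genes. Without mouse OWT-HC-110A of the homecage, 3 of 7 were called, Ciita (-1.84), H2-DMb1 (-1.49) and H2-DMa (-1.03), among 1855 genes, and the median was -1.85. In young mice the differences were between -0.13 ± 0.17 (H2-DMb1) and 0.01 ± 0.42 (H2-Ab1), with a median of -0.07 against 0.01 over all genes. Of the 7, 0 were called there, beside 0.423% of all genes (60, with 1441 at an unadjusted p under 0.05).

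Whether training differed by genotype or by age was fitted as an interaction. The difference of the training differences in old HDAC3flox/flox and old wildtype mice was -2.30 ± 1.65 for H2-Aa, -2.39 ± 1.68 for Cd74 and -0.31 ± 0.88 for Ciita, with a median of -2.05. No member was called and no gene was (0%; 596 at an unadjusted p under 0.05). The median was -1.01 without OWT-HC-110A, and -0.77 without both OWT-HC-110A and H3F-HC-121B, an alternative added after the values were seen. For old against young wildtype mice the median was -0.75, from -1.36 ± 0.67 for Ciita to -0.63 ± 0.41 for H2-DMa. Again 0 members and 0% of genes were called (1423 at an unadjusted p under 0.05), while without OWT-HC-110A 3 of 7 were called among 2548 genes in all and the median was -1.83.

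HDAC3 deletion was compared within old mice. In the homecage the members were higher in value in HDAC3flox/flox mice, by 1.34 ± 1.19 for H2-Aa, 1.30 ± 1.20 for Cd74, 1.26 ± 1.14 for H2-Eb1 and 1.18 ± 1.17 for H2-Ab1, with 0.70 ± 0.68 for H2-DMb1, 0.38 ± 0.47 for H2-DMa and 0.07 ± 0.65 for Ciita. Of the 7, 0 were called, beside 0.127% of all genes (18, with 1800 at an unadjusted p under 0.05). The median of 1.18 rested on mouse OWT-HC-110A: without it the median was 0.13, and without both OWT-HC-110A and H3F-HC-121B it was -0.08. After OLM the members were lower in value in HDAC3flox/flox mice, with differences from -1.09 ± 1.07 for Cd74 to -0.23 ± 0.53 for Ciita (median -0.88), with 0 of 7 called beside 0.268% of all genes (38, with 674 at an unadjusted p under 0.05). That median was -1.56 without H3F-BV-113D and -0.41 without OWT-BV-106C. All 7 genes overlapped between genotypes in both conditions, as did nearly all of the 14173 genes: 134 (0.945%) did not overlap in the homecage and 49 (0.346%) after OLM. The 8 choroid plexus markers, from a tissue next to the hippocampus that dissection can catch, had medians of the same sign as the members, 1.55 in the homecage (8 of 8 above 0), -0.86 after OLM (0 of 8 above 0) and -2.53 for the interaction of training with deletion (0 of 8 above 0), with 0 called. For training in old wildtype mice their median was 1.82, and for training by age 2.06 (8 of 8 above 0 in each). Those 2 medians were opposite in sign to the members. For training in old HDAC3flox/flox and in young mice they were -0.71 and -0.17, of the same sign as the members. The part of the choroid plexus in the members' differences was not tested. The deletion and training comparisons share their libraries.

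The sexes were not balanced between the old genotypes: females made 5 of 8 mice in each HDAC3flox/flox group and 2 of 6 in each wildtype group. After OLM, H2-Aa was 26.4 to 871 RPKM in the 3 males and 6.03 to 23.7 RPKM in the 5 females with HDAC3flox/flox. With wildtype alleles it was 46.3 to 315 RPKM in the 4 males and 7.60 and 25.0 RPKM in the 2 females. The males thus lay above the females in both genotypes, but the groups are small. The share of all genes that separate by sex there was not counted. Homecage mice showed no such order, since the highest HDAC3flox/flox mouse (857 RPKM) and the lowest mouse of each genotype (10.4 and 1.95 RPKM) were female. The homecage medians were 540 RPKM in females and 285 RPKM in males with HDAC3flox/flox, and 163 and 238 RPKM with wildtype alleles. With sex as a covariate the median deletion difference after OLM was 0.03 in place of -0.88, and in the homecage 1.49 in place of 1.18. The part of sex in the members' levels was not tested further.

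Old and young wildtype mice gave the largest differences of the members among these comparisons. In the homecage Cd74 (6.65 ± 1.15), H2-Aa (6.28 ± 1.12) and H2-Ab1 (6.19 ± 1.08) had the 3 largest differences of all 14173 genes and H2-Eb1 (5.45 ± 1.02) the 8th. H2-DMb1 was higher by 3.00 ± 0.61, Ciita by 2.42 ± 0.56 and H2-DMa by 1.76 ± 0.32. All 7 were called higher in old mice, beside 32.1% of all genes called higher and 17.7% called lower, and the median was 5.45, against 0.05 over all genes. Of the 7, 0 had groups that did not overlap, as mouse OWT-HC-110A lay within the young range, beside 9.07% of all genes whose old mice all lay above the young.

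After OLM the same 7 genes were called higher in old mice, beside 19.1% of all genes called higher and 8.81% called lower. Here too Ciita had passed the filter through the old mice. The differences were 5.90 ± 0.82 for Cd74, 5.53 ± 0.76 for H2-Aa, 5.12 ± 0.68 for H2-Ab1, 4.73 ± 0.69 for H2-Eb1, 2.27 ± 0.27 for H2-DMb1, 1.12 ± 0.22 for H2-DMa and 1.06 ± 0.31 for Ciita (median 4.73). Every trained old wildtype mouse lay above every trained young wildtype mouse for 6 of the 7 genes, all but Ciita, beside 7.42% of all genes. Over the old mice of both genotypes, the median was 162 times the young median for H2-Aa (113.2 against 0.698 RPKM), 134 times for H2-Ab1, 91.3 times for H2-Eb1, 232 times for Cd74, 12.7 times for H2-DMb1, 12.6 times for Ciita and 2.85 times for H2-DMa (18.5 against 6.51 RPKM). The I-A chains, H2-Eb1 and Cd74 exceeded every young mouse in 27 of 28 old mice, H2-DMb1 in 26, and Ciita and H2-DMa in 25.

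**Figure D4:**
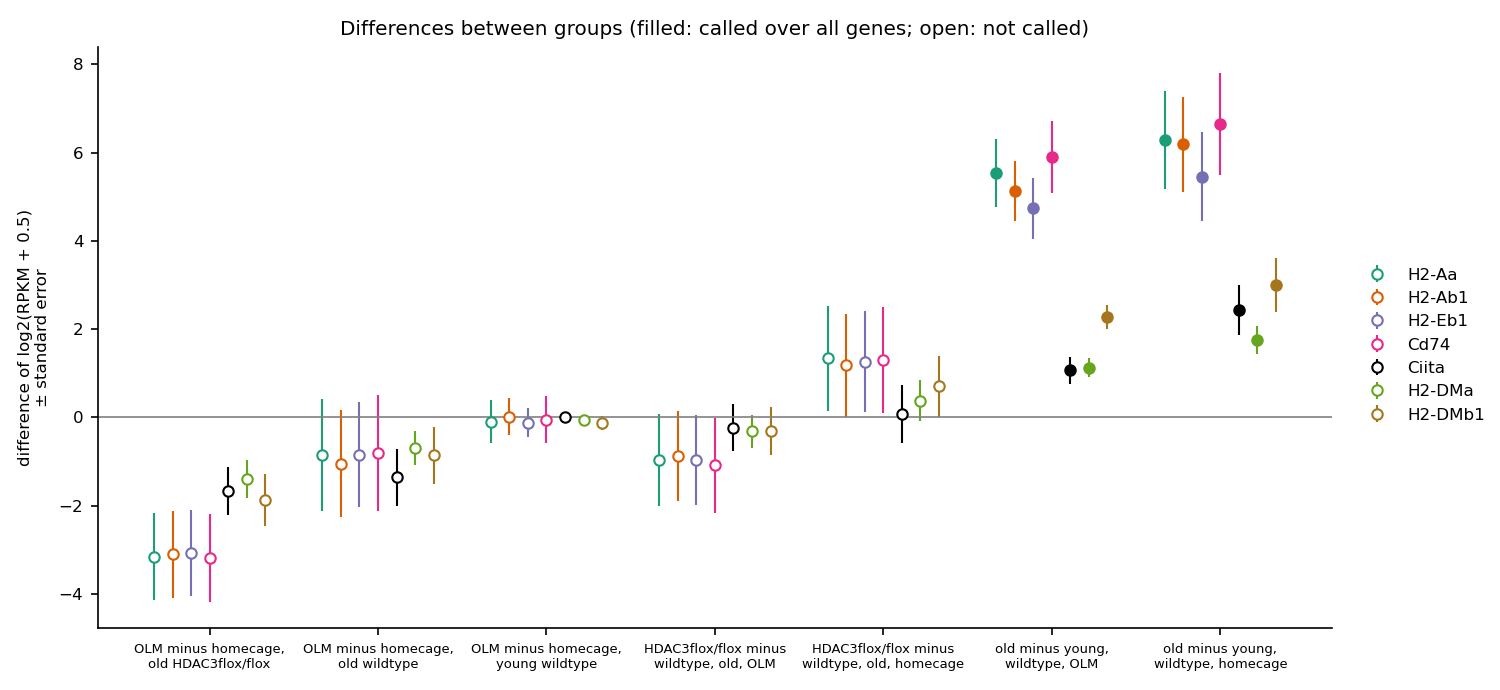
Difference of log2(RPKM + 0.5) ± standard error for each gene in 7 comparisons; filled points were called over all genes and open points were not. The medians of the 7 genes were -3.08, -0.85 and -0.07 for OLM minus homecage in old HDAC3flox/flox, old wildtype and young wildtype mice, -0.88 and 1.18 for HDAC3flox/flox minus wildtype after OLM and in the homecage, and 4.73 and 5.45 for old minus young after OLM and in the homecage.

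The rest of the pathway was followed with gene lists, tested in the same limma fits. All counts of called genes stand beside 32.1% of all genes called higher in old mice in the homecage and 19.1% after OLM. Other class II chains were called higher in old mice for 3 of 3 tested genes, in the homecage (H2-Oa 2.44, H2-DMb2 2.32, H2-Ob 1.96) and after OLM (H2-Oa 2.39, H2-Ob 1.41, H2-DMb2 1.12). H2-Eb2 had a mean below 0.5 RPKM and was not tested. H2-DMb2 and H2-Ob, at most 0.210 and 0.276 RPKM in young mice, passed that filter through the old mice. H2-Oa and H2-Ob form H2-O, which inhibits H2-DM. Of 6 endosomal genes that prepare peptides and trim Cd74, 6 were higher in the homecage, led by Ifi30 (3.86), a thiol reductase, and Ctss (2.98), the protease that cleaves Cd74, with Lgmn (1.46) and Ctsb (1.11), and 5 after OLM. Of 5 genes for turnover and costimulation, Cd40 (2.26), Cd86 (2.23) and Cd80 (1.23) were higher in the homecage, and 3 of 5 after OLM, whereas March1 and March8, ubiquitin ligases that remove class II from the surface, were not called in the homecage.

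The proteins on which Ciita docks differed by less. Of 7 RFX, NF-Y and CREB genes, 3 were called higher in old mice in the homecage, Nfya (0.51), Rfx5 (0.23) and Creb1 (0.20), and 1, Nfyb (-0.17), was called lower after OLM. These counts lay near the shares of all genes, 32.1% called higher in the homecage and 8.81% called lower after OLM. The genes upstream of Ciita differed by more: of 10 genes of interferon gamma signalling, 9 were called higher in the homecage, among them Irf8 (3.38), Irf1 (3.34) and Irf2 (0.75), and 8 after OLM. Ifng itself was listed at 0 in 11 of 12 young mice and reached 5.64 RPKM in the old wildtype homecage mouse OWT-HC-129A, which also had the highest Ciita (13.1 RPKM). Ifng was among the 9 called in the homecage and had passed the filter through the old mice, which favoured a higher call. It was also listed at 0 in some mice of every old group. H2-Aa in those old mice ran from 1.95 RPKM (OWT-HC-110A) to 100 RPKM (OWT-BV-104C). A link of Ifng to the members was not tested. Class I presentation, which shares the interferon route and has Nlrc5 as its own coactivator, was called higher for 9 of 9 genes in both conditions, with Psmb8 (4.47), Psmb9 (4.41), H2-K1 (4.29) and H2-D1 (4.07) in the homecage. In the training and deletion comparisons 0 genes of any list were called.

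Markers of immune cells were counted in the same comparisons, for cells that can carry class II and for T cells, to which it is presented. Called higher in old mice in the homecage were 5 of 5 tested B cell genes, 8 of 8 T cell genes, 4 of 5 dendritic cell genes, 5 of 6 genes of border macrophages and monocytes and 5 of 10 microglial genes, with 1 microglial gene lower, beside 32.1% of all genes called higher. After OLM the counts were 1 of 5 (Cd79b, 1.30), 8 of 8, 2 of 5, 4 of 6 and 7 of 10, with 1 microglial gene lower, beside 19.1% of all genes called higher. Pax5, Cr2, Xcr1, Clec9a, Cd209a, Cd163 and Lyve1 had a mean below 0.5 RPKM and were not tested. In young mice the 7 B cell genes summed to 0.175 to 1.33 RPKM. The B and T cell genes thus passed that filter through the old mice, which favoured a higher call. In young mice the 8 genes of border macrophages and monocytes summed to 1.19 to 4.59 RPKM and the 8 dendritic cell genes to 2.64 to 4.16 RPKM. The same limit holds for those of them below 0.5 RPKM in young mice, which were not counted. The 8 T cell genes summed to 3.25, 8.32 and 75.2 RPKM (lowest, median and highest) in old HDAC3flox/flox mice after OLM, against 5.79, 39.3 and 82.4 RPKM in the homecage, and to 3.50, 7.45 and 39.1 RPKM in old wildtype mice after OLM, against 0.991, 37.5 and 75.8 RPKM in the homecage. Young mice had 0.477 to 1.004 RPKM over both conditions. The 10 microglial genes summed to a median of 277 RPKM in old HDAC3flox/flox mice after OLM, against 451 RPKM in the homecage, of 307 RPKM in old wildtype mice after OLM, against 408 RPKM in the homecage, and of 162 and 174 RPKM in young mice after OLM and in the homecage. The part of these cells in the members' levels was not tested.

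Across the 28 old mice, centred on group means, the lists' mean log2 levels correlated with the members' mean by 0.924 for other class II chains, 0.919 for class I, 0.890 for T cells, 0.889 for interferon gamma signalling, 0.884 for turnover and costimulation, 0.854 for endosomal genes, 0.847 for dendritic cells, 0.8286 for border macrophages and 0.805 for B cells. Microglia (0.631), endothelium (0.410), astrocytes (0.391) and the Ciita partners (0.288) followed less closely, and hippocampal neurons ran the other way (-0.528). These are descriptions over mice whose lists share 1 library and its depth. The choroid plexus list had -0.185 in old mice but 0.893 in the 12 young mice, and 0.661 there without the 2 mice farthest from the median. Dendritic cells (0.936), border macrophages (0.911), endosomal genes (0.880) and endothelium (0.858) were also high in young mice, while microglia (-0.563) and hippocampal neurons (-0.863) ran the other way. The 3 young mice with the highest choroid plexus levels, YWT-BV-1923 (5.91 on the log2 scale), YWT-HC-1931 (4.75) and YWT-HC-1940 (4.35), were also the 3 young mice with the most H2-Aa, at 3.70, 3.40 and 1.44 RPKM. In the age comparison of the homecage 5 of 8 choroid plexus genes were called lower in old mice (Ttr -6.03), opposite to the members, and 0 of 8 after OLM.

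**Figure D5:**
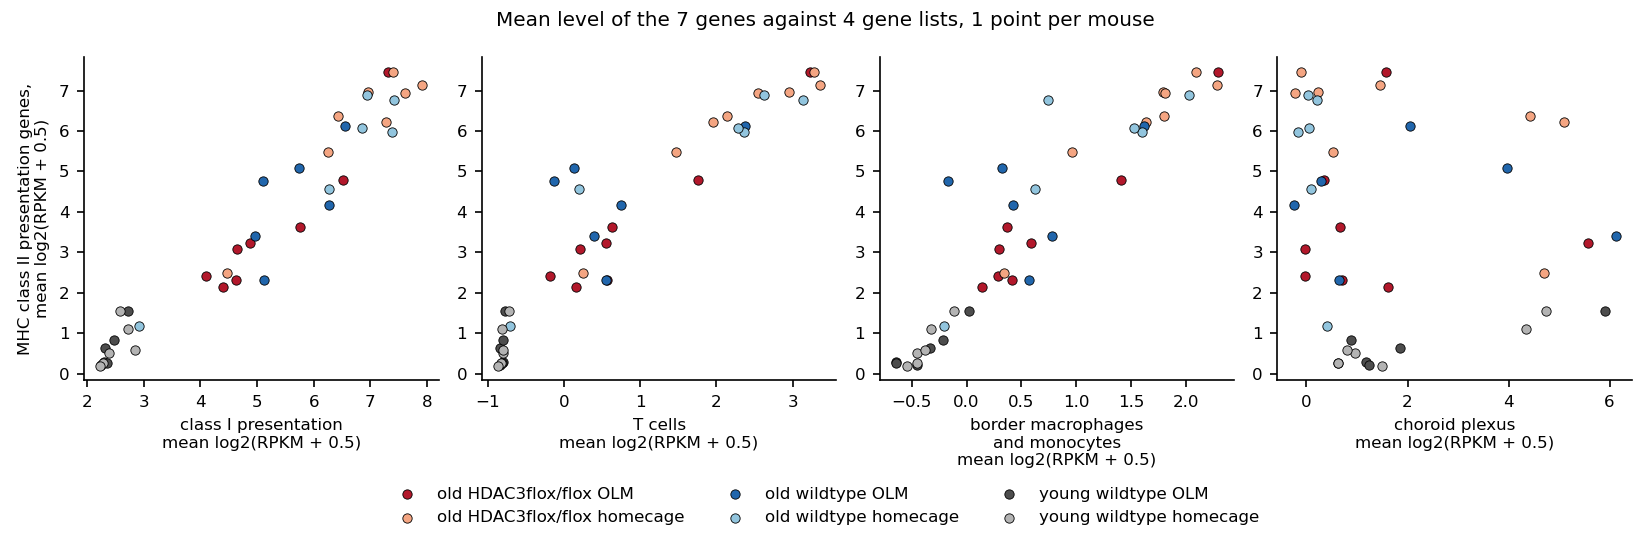
Mean log2(RPKM + 0.5) of the 7 genes against that of 4 gene lists, 1 point per mouse, coloured by group. In old mice the members run with class I presentation (r = 0.919), T cells (0.890) and border macrophages and monocytes (0.8286) after centring on group means, with -0.185 for the choroid plexus.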

How the data were processed

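RNA was measured in the dorsal hippocampus of 40 mice, 1 library each, with poly-A libraries and single reads of 50 bases. The authors aligned the reads to mm10 with ELAND and Bowtie after CASAVA 1.8.2, kept unique alignments and deposited RPKM values per gene, which were used as given. A deposited table of the authors' own comparisons was not used. Groups came from the sample labels; sex was read from Xist and Ddx3y. Depth was estimated from the step between the 80 lowest values of RNA genes of at most 200 bases (tolerance 0.02 of a step), under the assumption that 1 step is 1 base of a read; the median was 25.4 M reads.

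Values were tested as log2(RPKM + 0.5) with limma 3.58.1 (lmFit, eBayes with trend) in R 4.3.3 for 14173 genes with a mean of at least 0.5 RPKM, with the groups of each comparison only. Calls needed a p below 0.05 and, after Benjamini-Hochberg adjustment, below 0.15. The fit was tested on simulated data. Tables and figures were made with Python 3.11.15, numpy 2.4.6, pandas 2.3.3 and matplotlib 3.10.9. Alternatives were a pseudocount of 0.1 or 1, a minimum mean of 1 RPKM or none, median-ratio and quantile normalization, sex as a covariate, all 40 libraries in 1 model, weights for libraries, and leaving out each mouse.

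The members, the gene lists and the tests were chosen with earlier results of these data known. The text names the 7 members, up to 4 called genes with the smallest p per list and comparison, and the 10 genes most correlated with the members' mean in old mice. Other genes named stand for a count or a single mouse and were chosen after their values were seen. One gene of the interferon gamma list is not reported here by name.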

Additional observations from a re-analysis of the deposited data

Results flagged for a closer look

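Dixon's test at the 95% level was applied to each of the 7 genes in each of the 6 groups, on the log2(RPKM + 0.5) scale. It set 1 mouse apart from the others of its group in 8 of 42 pairs of gene and group. Chance sets 1 mouse apart in about 1 in 20 groups, and the 7 genes of a mouse are not independent. The 8 pairs came from 3 mice.

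Mouse H3F-HC-112B was the low one in the old HDAC3flox/flox homecage, with 10.4 RPKM of H2-Aa (a gap to the next mouse of 0.630 of the group's range on that scale), 8.25 RPKM of H2-Ab1 (0.639), 5.69 RPKM of H2-Eb1 (0.601) and 20.8 RPKM of Cd74 (0.614). Mouse OWT-HC-110A was the low one in the old wildtype homecage, with 4.15 RPKM of Cd74 (0.627) and 0.645 RPKM of H2-DMb1 (0.659). Mouse H3F-BV-113D was the high one in the old HDAC3flox/flox OLM group, with 7.79 RPKM of Ciita (0.781) and 42.4 RPKM of H2-DMa (0.553). Each of the 3 mice stood at the same end of its group for 7 of 7 genes.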

How the results depend on the processing

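The count of members called in the training comparison of old HDAC3flox/flox mice was 0, against 7 with all 40 libraries in 1 model and 7 with weights for libraries, and ranged from 0 to 7 over the left-out mice. In old wildtype mice it was 0, against 3 with weights for libraries, and ranged from 0 to 3. The interaction of training with age gave 0, against 3 with weights for libraries, and ranged from 0 to 3. That interaction had 3615 genes called in all with weights and 2548 without OWT-HC-110A. The cause of these changes was not tested. In the age comparison after OLM, 6 of 7 were called in the model of all 40 libraries, in which Ciita was not. Counts over all genes changed with the same settings, to 7194 and 2372 genes with weights in the training comparisons of old HDAC3flox/flox and old wildtype mice. The median difference of the members ranged, over the left-out mice, from -3.77 to -2.75 for training in old HDAC3flox/flox mice, from -1.85 to -0.52 in old wildtype mice and from -0.28 to 0.07 in young mice. It ranged from 0.13 to 1.85 for deletion in the homecage, from -1.56 to -0.41 for deletion after OLM, from 5.001 to 6.46 for age in the homecage and from 4.26 to 5.27 for age after OLM. Of 1589 differences of single members under an alternative, 1587 moved by less than the spread between mice and 0 of the called ones changed sign. That spread is wide for these genes, so the first count lets large shifts pass. For deletion in the homecage, H2-Aa went from 1.34 to 0.01 without OWT-HC-110A and H3F-HC-121B. Differences that were not called could change sign, as Cd74 did there (-0.08). No paired analysis was possible because the groups share no replicate numbers and each mouse gave 1 library. Ciita and the I-A chains of young mice rest on few reads, which limits their ratios and correlations there.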
